A study of Mus musculus with 11 samples.

Results

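Conjugation enzymes attach a polar group to drugs, dietary compounds, steroids and bile acids, and the intestinal epithelium carries 3 large families of them. The genes described here are those whose symbol belongs to the glutathione S-transferases (Gst, with the membrane-bound Mgst), the UDP-glucuronosyltransferases (Ugt1 to Ugt3) or the sulfotransferases (Sult). The symbols alone chose them, and no expression value was used. The union of the ileum and colon tables held 35 such gene entries of 13640 named entries, namely 23 Gst, 6 Ugt and 6 Sult. The 35 entries carry 42 symbols, because 8 Ugt1a genes (Ugt1a1, Ugt1a2, Ugt1a5, Ugt1a6a, Ugt1a6b, Ugt1a7c, Ugt1a9 and Ugt1a10) share 1 entry. Each table held 34 of the 35 entries, with 33 in both: Gsto2 had a row in the colon table only, and Ugt2a3 in the ileum table only. No member was listed at 0 FPKM.

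Glutathione S-transferases add the tripeptide glutathione to electrophiles, and several members also reduce peroxides. UDP-glucuronosyltransferases of the endoplasmic reticulum transfer glucuronic acid from UDP-glucuronic acid, and sulfotransferases of the cytosol transfer sulfate from PAPS. The conjugates leave the enterocyte through ABC transporters. The Ugt1a genes have their own first exons and share the remaining exons, whereas the Ugt2b, Gstm and other members lie in tandem clusters.

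Intestinal epithelial cells (IECs) of 10-week-old mice were compared between Vil-Ogt KO animals and WT controls. Vil-Ogt KO mice come from a cross of floxed Ogt with Villin-Cre, which is active in the epithelium of both the small and the large intestine, and lack the O-GlcNAc transferase OGT in those cells. The methods describe male animals unless stated otherwise, and the genotype of the WT controls is not described further. There were 3 Vil-Ogt KO and 2 WT libraries of the ileum, and 3 Vil-Ogt KO and 3 WT libraries of the colon. IECs were released by shaking in EDTA, and RNA of samples was pooled for library construction, so the number of mice behind a library is not known. Each table gives 1 value per genotype and gene, the authors' log2 FPKM (read fragments scaled by transcript length and by library size). Values of single libraries are not analysed here, so depth and the spread between animals are unknown, no value has an SD, and no test of a difference between genotypes was made. A difference is the log2 FPKM of Vil-Ogt KO minus that of WT, and a gene is counted as higher or lower where it differs by more than 2-fold.

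The Ogt level was 1.97 log2 FPKM in Vil-Ogt KO ileum against 3.39 in WT ileum, and 3.03 in Vil-Ogt KO colon against 5.02 in WT colon, in the direction of the labels in both tissues. Markers of several cell types differed widely between the genotypes. In the ileum, 12 of 12 absorptive enterocyte markers were higher in Vil-Ogt KO (summed 22800 against 1820 FPKM in WT), 9 of 9 colonocyte markers were lower (318 against 6900 FPKM), 7 of 9 Paneth cell markers were higher (10100 against 1140 FPKM), 9 of 9 lymphocyte markers were higher (563 against 104 FPKM), 5 of 9 goblet cell markers were lower (3930 against 7630 FPKM) and 7 of 9 markers of stem and dividing cells were lower (238 against 743 FPKM). Most of the colonocyte sum in WT ileum was Car1, at 7.41 log2 FPKM in Vil-Ogt KO ileum and 12.53 in WT ileum. The ileum labelled WT thus carried colonocyte markers at high level: Aqp8, a water channel of colonocytes, was at -1.96 log2 FPKM in Vil-Ogt KO ileum and 6.14 in WT ileum, beside 6.41 in Vil-Ogt KO colon and 7.51 in WT colon. It also carried ileal markers, with the Paneth cell defensin Defa24 at 12.91 log2 FPKM in Vil-Ogt KO ileum and 9.49 in WT ileum, and at 2.57 in Vil-Ogt KO colon and 0.69 in WT colon. Defa24 held most of the Paneth cell sum in the ileum. The paper reports fewer Paneth cells in Vil-Ogt KO ileum, with lower defensins and Ang4 and unchanged Lyz1 in whole ileum tissue. Here Lyz1 was at 9.87 log2 FPKM in Vil-Ogt KO ileum and 5.79 in WT ileum. Defa5 was at 5.88 against 1.54 and Ang4 at 6.96 against 6.91. The reason for this disagreement was not tested. In the colon, 8 of 11 enterocyte markers were higher in Vil-Ogt KO (1200 against 731 FPKM), 6 of 9 colonocyte markers were lower (1490 against 2830 FPKM), 5 of 9 goblet cell markers were higher and 1 lower (11300 against 2650 FPKM), and 4 of 9 lymphocyte markers were lower (26.3 against 62.8 FPKM). Most of the enterocyte sum in the colon was Fabp2, which was within 2-fold (10.03 against 9.28 log2 FPKM). Of the 8 higher ones, Fabp1, Apoa1 and Apoa4 were below 1 FPKM in both genotypes. The colonocyte sums of the 2 tissues cover different genes, since Car1 had no value in the colon and Atp12a none in the ileum. No marker of these lists was at 0. Erythrocyte markers were higher in Vil-Ogt KO in both tissues, 3 of 3 measured (48.7 against 1.29 FPKM in ileum, 64.5 against 6.30 FPKM in colon). Fewer cells of a type and less RNA per cell cannot be told apart in such bulk samples, and the part of cell composition in the values of the conjugation enzymes was not tested.

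The tandem Ugt2b genes are shown first by sequence, since these neighbours in 1 tandem had unlike differences between genotypes. The RefSeq promoter table (build GRCm38.p6) gave a promoter for 39 of the 42 symbols, and the last 100 bases before the annotated start are printed, 5′ to 3′ on the strand of the gene. Capitals mark the letters GTTANNNNNTAAC, a palindromic pattern that the 4 Ugt2b windows have in common. That pattern was chosen after the sequences were seen.
Ugt2b5 (chr5:87140341-87140440, minus strand): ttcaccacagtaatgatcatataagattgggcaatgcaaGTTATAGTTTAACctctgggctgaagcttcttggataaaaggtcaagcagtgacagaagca
Ugt2b35 (chr5:87000760-87000859, plus strand): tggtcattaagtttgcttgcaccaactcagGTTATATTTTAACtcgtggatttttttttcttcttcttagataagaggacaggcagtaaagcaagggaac
Ugt2b36 (chr5:87092556-87092655, minus strand): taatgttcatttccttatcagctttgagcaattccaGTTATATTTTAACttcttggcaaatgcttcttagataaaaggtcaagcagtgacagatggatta
Ugt2b34 (chr5:86906938-86907037, minus strand): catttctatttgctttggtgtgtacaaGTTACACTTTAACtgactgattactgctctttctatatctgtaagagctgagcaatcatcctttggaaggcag
Ugt2a3 (chr5:87337196-87337295, minus strand): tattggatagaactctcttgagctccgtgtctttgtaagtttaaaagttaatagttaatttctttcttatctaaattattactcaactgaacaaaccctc
The palindrome lay 61 bases before the start of Ugt2b5, 64 before that of Ugt2b36, 70 before that of Ugt2b35 and 73 before that of Ugt2b34, counted from its first base. These 4 were 10.3% of the 39 member promoters, against 0.307% of the 32851 promoters of the table that hold it within 250 bases before the start. Because the pattern was chosen from these windows, their match was fixed in advance, and the percentages do not measure an enrichment. Ugt2b5 and Ugt2b36 were 67% identical over the printed window at the best ungapped shift, while the other pairs of the 4 Ugt2b windows were 33.3% to 50.5% identical. Ugt2b34 held the palindrome as the other 3 did, and its values are set beside theirs further on.

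Sult1a1, the member farthest below WT in both tissues, and Gsta1, the member more than 2-fold above WT in both, are shown in the same way.
Sult1a1 (chr7:126676419-126676518, minus strand): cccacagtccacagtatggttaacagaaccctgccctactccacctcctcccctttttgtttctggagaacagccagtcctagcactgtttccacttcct
Gsta1 (chr9:78230569-78230668, plus strand): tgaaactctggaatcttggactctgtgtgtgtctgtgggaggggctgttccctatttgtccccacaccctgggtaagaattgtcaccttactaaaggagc
Neither window has the palindrome. Within 250 bases on either strand, the antioxidant response element TGACNNNGC was found in 3 of 39 member promoters (7.69%, against 10.2% of all promoters), namely Gsta3, Gstm5 and Mgst1. The core of the xenobiotic response element, GCGTG, was found in 7 (17.9%, against 28.2%), the CDX2 pattern TTTATNG in 1 (2.56%, against 9.81%), TATAAA in 2 (5.13%, against 12.4%) and the HNF4 pattern CAAAGTCCA in none (0.384% of all). Promoters of related genes share letters by descent, so these counts are not independent, and a match describes letters and not binding.

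In the ileum, 7 of 34 members were higher in Vil-Ogt KO than in WT by more than 2-fold (20.6%, against 15.4% of all 12675 named genes) and 8 were lower (23.5%, against 15.0% of all). The higher ones were Gsta1, Gstm6, Gstm7, Gstt1, Sult1b1, Sult2b1 and Ugt2a3, and the lower ones Gstm2, Gstz1, Sult1a1, Sult1c2, Ugt2b5, Ugt2b35, Ugt2b36 and the Ugt1a entry. The median difference of the members was 0.01 on the log2 scale, against -0.07 over all genes, and the median size of the difference was 0.84, against 0.61. In the colon, 1 of 34 members was higher, Gsta1 (2.94%, against 7.21% of all 12831 named genes), and 4 were lower, Gstp2, Sult1a1, Sult1c2 and Ugt2b35 (11.8%, against 8.28%). The median difference there was -0.07, against -0.04 over all genes, and its median size 0.48, against 0.37. Past 2-fold in either direction were thus 44.1% of the members in the ileum, against 30.4% of all genes, and 14.7% in the colon, against 15.5%. The share of all genes depends on how low values are treated: with log2(FPKM + 1), 14 of 34 members were past 2-fold in ileum, against 18.4% of all genes, and 5 of 34 in colon, against 7.13%. Whether these shares differ was not tested.

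**Figure D1:**
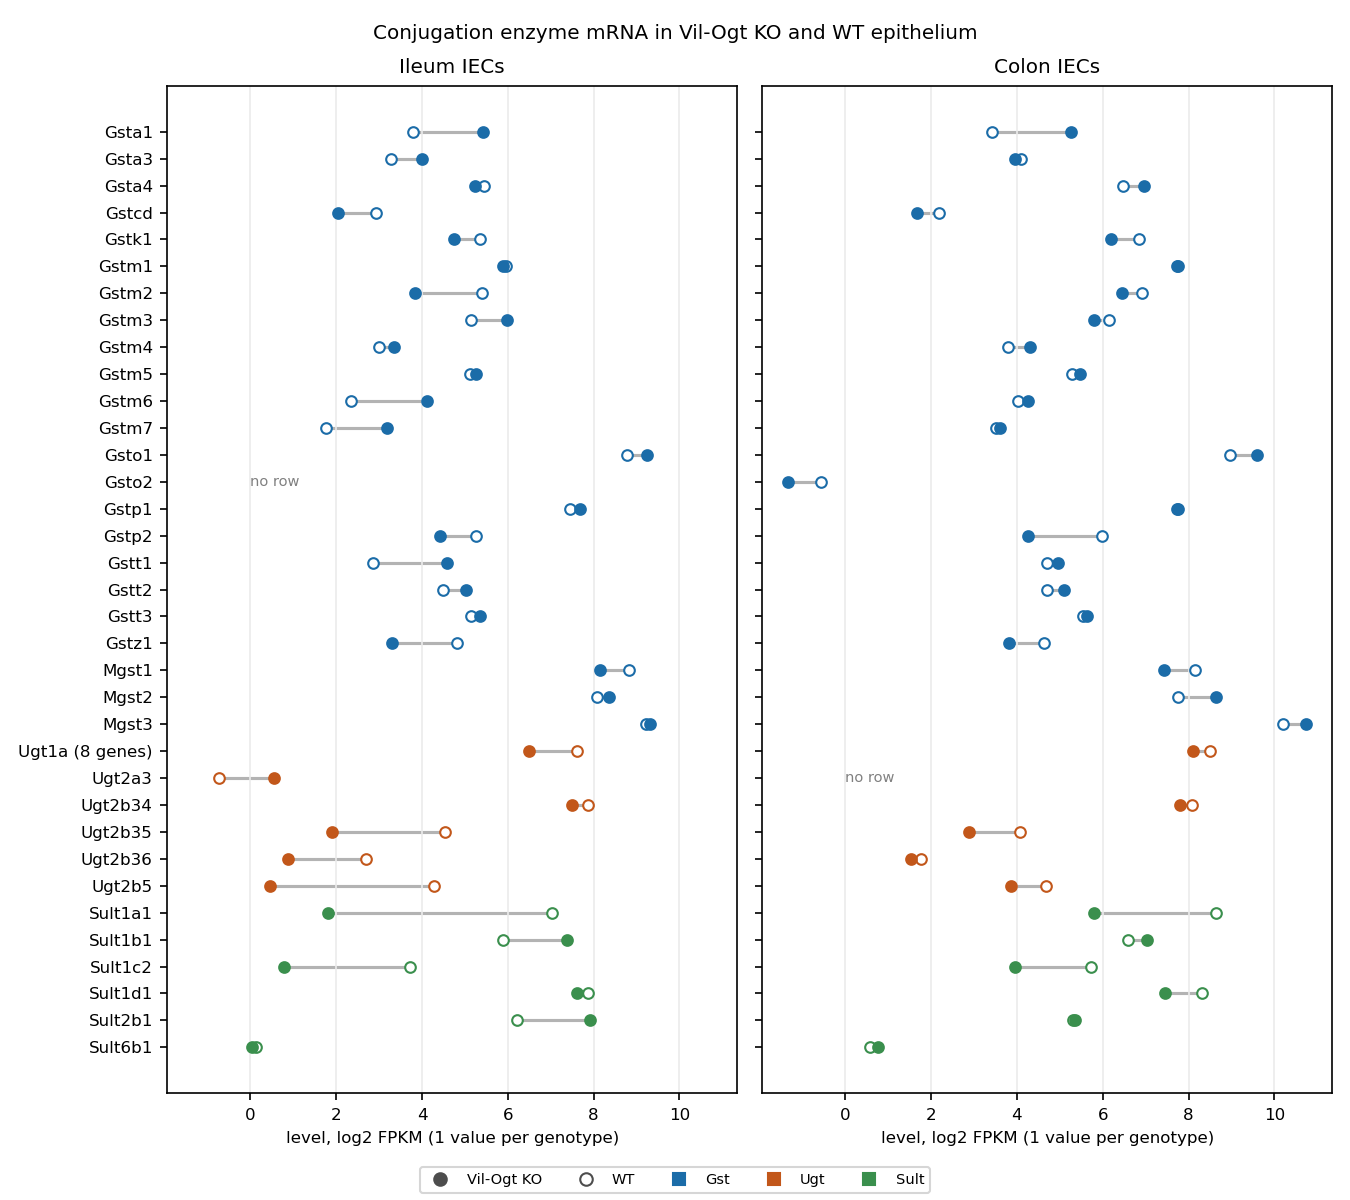
Levels of each conjugation enzyme gene in ileum (left) and colon (right) IECs, as log2 FPKM on the x axis. Filled points are Vil-Ogt KO and open points WT, with 1 value per genotype and no error known. The gap between the points is widest for Sult1a1 in both tissues, 1.80 in Vil-Ogt KO and 7.03 in WT ileum.

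Sulfotransferases held the widest single difference of each tissue. Sult1a1, the phenol sulfotransferase that conjugates small phenols and catechols, was at 3.48 FPKM in Vil-Ogt KO ileum and 131 FPKM in WT ileum, a difference of -5.23 on the log2 scale (37.5-fold lower). Itself included, 36 of 12629 genes with a value above 0 in both genotypes (0.285%) were as far or farther on the lower side. In the colon Sult1a1 was at 55.3 FPKM in Vil-Ogt KO and 399 FPKM in WT, a difference of -2.85 (7.21-fold lower), which 98 of 12814 genes (0.765%) reached. Its assembled locus in the ileum table, chr7:126648779-126676416 on mm10, runs on over the neighbouring gene Sgf29, as it does in the colon table, so reads of that gene may be counted in it. Loci of other members also overlap another protein-coding gene, namely those of Gstz1 (Pomt2), Gstm5 (Eps8l3), Gsto1 and Gsto2 (Cfap43), Gstt3 (Gm20441), the Ugt1a entry (Dnajb3 and Ugt1a8) and, in the colon table, Sult2b1 (Fam83e and Spaca4). Sult1c2, of the same cytosolic family, was likewise lower in both tissues. It was at 1.72 FPKM in Vil-Ogt KO ileum and 13.2 FPKM in WT ileum (-2.94 on the log2 scale), and at 15.5 FPKM in Vil-Ogt KO colon and 52.7 FPKM in WT colon (-1.77).

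Other sulfotransferases went the opposite way in the ileum. Sult2b1, which sulfates cholesterol and hydroxysteroids, was at 242 FPKM in Vil-Ogt KO ileum and 74.5 FPKM in WT ileum (3.25-fold higher). In the colon it was nearly level, with 40.8 FPKM in Vil-Ogt KO and 39.7 FPKM in WT. Sult1b1, which acts on thyroid hormones and phenols, was at 165 FPKM in Vil-Ogt KO ileum and 59.3 FPKM in WT ileum (2.79-fold higher), and at 131 FPKM in Vil-Ogt KO colon and 97.0 FPKM in WT colon. Sult1d1, a sulfotransferase of catecholamines that is a pseudogene in human, stayed within 2-fold, at 197 against 236 FPKM in the ileum and 175 against 320 FPKM in the colon (Vil-Ogt KO against WT). Sult6b1 was between 1.02 and 1.69 FPKM in the 4 groups. It was the only member named in several rows of a table, 2 in ileum and 4 in colon, and the row of highest mean was taken.

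The order of the sulfotransferases thus differed between genotypes. In Vil-Ogt KO ileum Sult2b1 made up 39.7% of the summed sulfotransferase FPKM, Sult1d1 32.2%, Sult1b1 27.1% and Sult1a1 0.57%. In WT ileum Sult2b1 made up 14.5%, Sult1d1 45.8%, Sult1b1 11.5% and Sult1a1 25.4%. In colon Sult1a1 made up 13.2% of the sum in Vil-Ogt KO and 43.9% in WT. The family sum was 611 FPKM in Vil-Ogt KO ileum and 514 FPKM in WT ileum, and 419 FPKM in Vil-Ogt KO colon and 909 FPKM in WT colon. Without Sult1a1 the sum was 607 against 384 FPKM in the ileum and 363 against 510 FPKM in the colon. With and without that gene, the sum was higher in Vil-Ogt KO ileum and lower in Vil-Ogt KO colon than in WT.

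**Figure D2:**
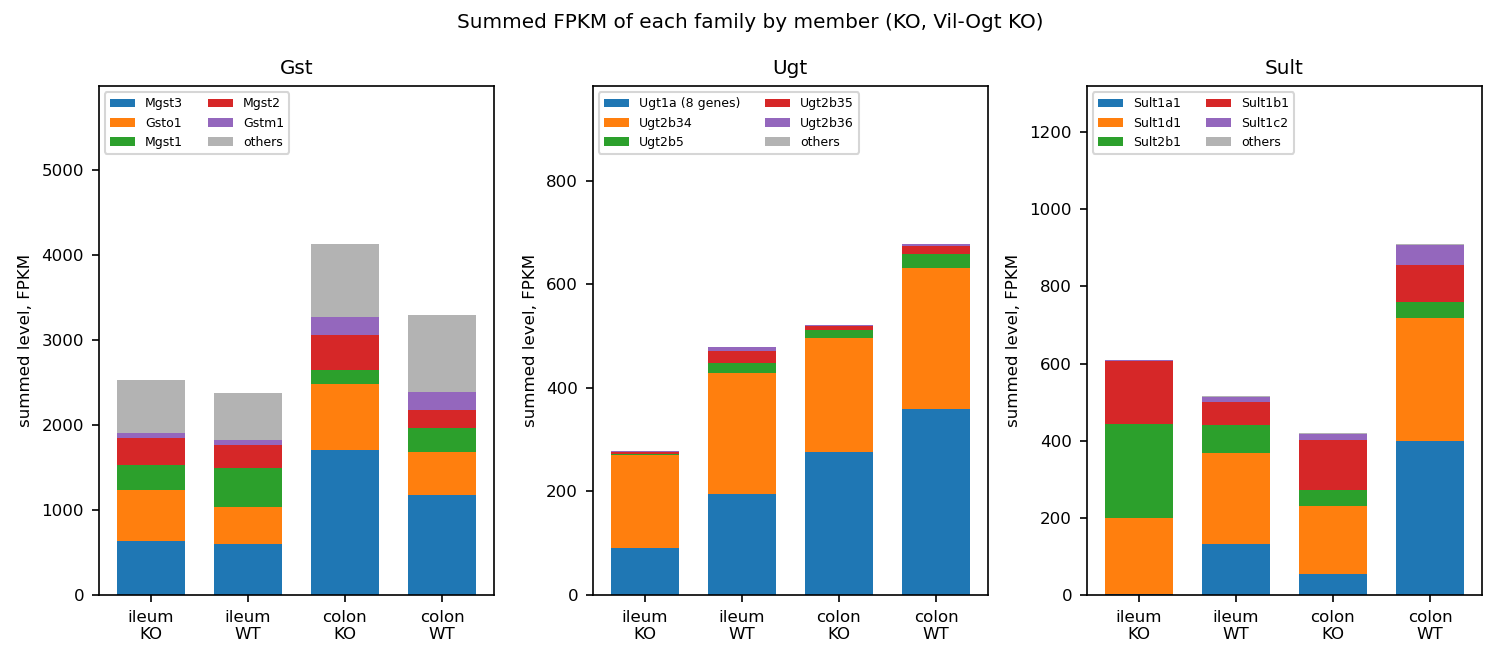
Summed FPKM (y axis) of the Gst, Ugt and Sult families in each group, stacked by the 5 members with the highest level and all others in grey. In the Sult panel the Sult1a1 share is 0.57% in Vil-Ogt KO ileum and 25.4% in WT ileum, and 13.2% in Vil-Ogt KO colon and 43.9% in WT colon. Ileum and colon were normalized separately.

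Among the UDP-glucuronosyltransferases in Vil-Ogt KO ileum, 1 of 6 entries was higher (16.7%, against 15.4% of all genes) and 4 were lower (66.7%, against 15.0%). In Vil-Ogt KO colon, 0 of 5 were higher (against 7.21% of all genes) and 1 was lower (20%, against 8.28%). The value of every entry but Ugt2a3 lay below that of WT. The Ugt1a entry, whose Ugt1a1 product conjugates bilirubin, was at 90.5 FPKM in Vil-Ogt KO ileum and 195 FPKM in WT ileum (2.16-fold lower), and at 276 FPKM in Vil-Ogt KO colon and 360 FPKM in WT colon. It spans chr1:88055411-88220002 on mm10 in the ileum table, and the share of each Ugt1a gene in it cannot be read from the tables. Ugt2b5, of the Ugt2b enzymes that act on steroids and bile acids, was at 1.37 FPKM in Vil-Ogt KO ileum and 19.6 FPKM in WT ileum (-3.84 on the log2 scale). In the colon it was at 14.6 FPKM in Vil-Ogt KO and 25.6 FPKM in WT (-0.81). Ugt2b35 was at 3.73 FPKM in Vil-Ogt KO ileum and 23.1 FPKM in WT ileum (-2.63), and at 7.41 FPKM in Vil-Ogt KO colon and 16.8 FPKM in WT colon (-1.18). It was the only Ugt entry lower by more than 2-fold in both tissues. Ugt2b36, of lower level, was at 1.84 FPKM in Vil-Ogt KO ileum and 6.50 FPKM in WT ileum (-1.82), and at 2.91 against 3.39 FPKM in the colon.

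In the ileum Ugt2b34 was the one Ugt2b gene within 2-fold, whereas in the colon Ugt2b35 was the one past it. Ugt2b34 was at 180 FPKM in Vil-Ogt KO ileum and 234 FPKM in WT ileum (-0.38 on the log2 scale), and at 221 FPKM in Vil-Ogt KO colon and 272 FPKM in WT colon (-0.30). It made up 64.5% of the Ugt sum in Vil-Ogt KO ileum and 48.8% in WT ileum. Ugt2a3, a bile acid glucuronosyltransferase in human, was at 1.47 FPKM in Vil-Ogt KO ileum and 0.607 FPKM in WT ileum, a low level at which it was just past 2-fold (1.28 on the log2 scale). The family sum was 279 FPKM in Vil-Ogt KO ileum and 479 FPKM in WT ileum, and 523 FPKM in Vil-Ogt KO colon and 678 FPKM in WT colon.

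The neighbouring members on chromosome 5 did not all differ in the same direction in either tissue. Over 683.9 kb the files place Ugt2b34, Ugt2b35, Ugt2b36, Ugt2b5, Ugt2a3, Sult1b1 and Sult1d1 in this order. In the GENCODE annotation all but Ugt2b35 are on the minus strand. In the ileum the 3 Ugt2b genes inside the row were lower by more than 2-fold, while Ugt2b34 at its start and Sult1d1 at its end were within 2-fold, and Ugt2a3 and Sult1b1 between them were higher. In the colon Ugt2b35 alone was past 2-fold among the 6 genes of the row that the colon table holds.

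**Figure D3:**
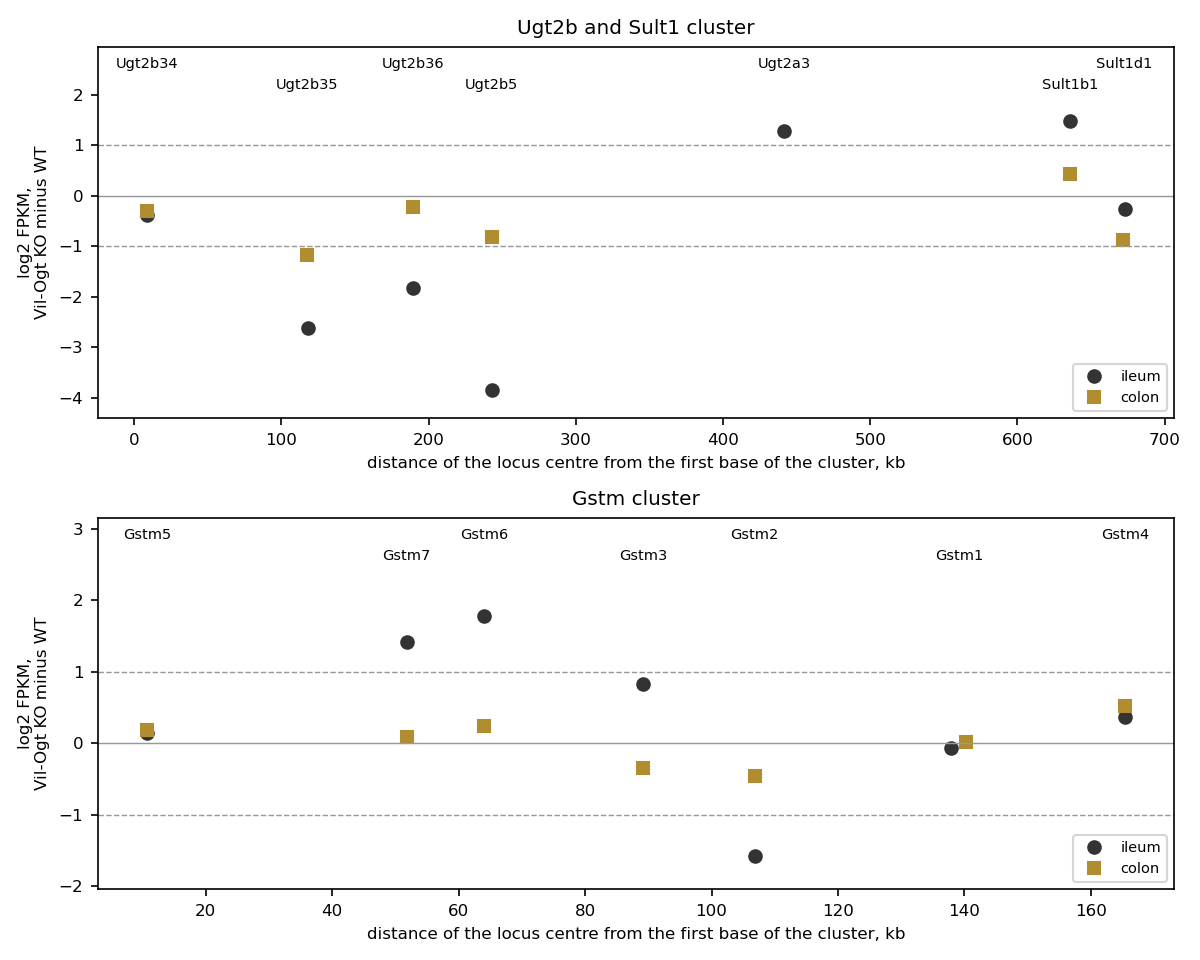
Difference between genotypes (log2 FPKM of Vil-Ogt KO minus WT, y axis) along the Ugt2b and Sult1 cluster (top) and the Gstm cluster (bottom), against the distance of each locus centre from the first base of the cluster in kb. Circles are ileum and squares colon, and dashed lines mark 2-fold. Ugt2b5 has the lowest circle, at -3.84, and Gstm6 the highest of the Gstm cluster, at 1.78.

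The glutathione S-transferases had the highest summed levels. Their median size of the difference in the ileum was 0.64 on the log2 scale, against 1.55 for Ugt and 1.59 for Sult, and in the colon 0.50, against 0.38 for Ugt and 0.65 for Sult. In the ileum, 4 of 22 were higher (18.2%, against 15.4% of all genes) and 2 were lower (9.09%, against 15.0%). In the colon, 1 of 23 was higher (4.35%, against 7.21% of all genes) and 1 lower (4.35%, against 8.28%). The microsomal Mgst3, a glutathione peroxidase and transferase of membranes, led in all 4 groups, at 635 FPKM in Vil-Ogt KO ileum, 600 FPKM in WT ileum, 1710 FPKM in Vil-Ogt KO colon and 1180 FPKM in WT colon. Gsto1, an omega-class thiol transferase and dehydroascorbate reductase, was at 605 against 440 FPKM in the ileum and 771 against 498 FPKM in the colon (Vil-Ogt KO against WT). Mgst2, which can make leukotriene C4, was at 326 against 271 FPKM in the ileum and 402 against 215 FPKM in the colon. Mgst1, the detoxifying form of the endoplasmic reticulum and the outer mitochondrial membrane, lay on the other side, at 284 FPKM in Vil-Ogt KO ileum and 452 FPKM in WT ileum, and at 172 FPKM in Vil-Ogt KO colon and 284 FPKM in WT colon. All 4 stayed within 2-fold in both tissues. The Gst sum was 2520 FPKM in Vil-Ogt KO ileum and 2380 FPKM in WT ileum, and 4130 FPKM in Vil-Ogt KO colon and 3300 FPKM in WT colon.

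Gsta1, an alpha-class enzyme that is a known target of the NRF2 antioxidant response, was the only member higher by more than 2-fold in both tissues. It was at 43.1 FPKM in Vil-Ogt KO ileum and 13.9 FPKM in WT ileum (3.10-fold higher), and at 38.6 FPKM in Vil-Ogt KO colon and 10.8 FPKM in WT colon (3.58-fold higher). In the ileum, 1118 of 12629 genes (8.85%) lay as far or farther on the higher side, and in the colon 380 of 12814 genes (2.97%). Of the 75-base words of its annotated transcripts, the length of the reads, 84.7% also occur in another gene, most of them in Gm3776 and Gsta2. The value may therefore hold reads of those copies. The other alpha-class genes were within 2-fold: the log2 difference of Gsta3 was 0.73 in ileum and -0.15 in colon, and that of Gsta4, which conjugates the lipid peroxidation product hydroxynonenal, -0.20 in ileum and 0.50 in colon.

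The mu-class genes, 7 in a cluster of 167.6 kb on chromosome 3, split in the ileum. Gstm6 was at 17.4 FPKM in Vil-Ogt KO ileum and 5.06 FPKM in WT ileum (3.43-fold higher), and its neighbour Gstm7 at 9.13 against 3.41 FPKM (2.68-fold higher). Gstm2 was at 14.3 FPKM in Vil-Ogt KO ileum and 42.5 FPKM in WT ileum (2.97-fold lower). Gstm1, Gstm3, Gstm4 and Gstm5 differed by -0.06 to 0.83 on the log2 scale. In the colon all 7 were within 2-fold, between -0.46 and 0.52. The mu class as a whole summed to 212 FPKM in Vil-Ogt KO ileum and 191 FPKM in WT ileum, and to 456 against 486 FPKM in the colon.

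Of the theta class, Gstt1 was at 23.9 FPKM in Vil-Ogt KO ileum and 7.26 FPKM in WT ileum (3.29-fold higher), and at 31.1 FPKM in Vil-Ogt KO colon and 26.2 FPKM in WT colon. Gstt2 and Gstt3 lay between 0.09 and 0.53 on the log2 scale in both tissues. Gstz1, the maleylacetoacetate isomerase of tyrosine breakdown, was at 9.92 FPKM in Vil-Ogt KO ileum and 28.1 FPKM in WT ileum (2.83-fold lower), and at 14.0 against 24.8 FPKM in the colon. Gstp2 of the pi class was at 19.2 FPKM in Vil-Ogt KO colon and 63.1 FPKM in WT colon (3.29-fold lower), and at 21.3 against 38.1 FPKM in the ileum. Its neighbour Gstp1 was level, at 207 against 175 FPKM in the ileum and 215 against 211 FPKM in the colon. These copies share 50.1% of the 75-base words of Gstp2 and 29.2% of those of Gstp1 with other genes, mostly with each other, so the counting could split their reads either way. Gstk1 and Gstcd were lower by less than 2-fold in both tissues (-0.51 to -0.89 on the log2 scale), and Gsto2 was at 0.398 against 0.674 FPKM in the colon.

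Of the other members past 2-fold, 30.4% of the words of Ugt2b5 occur in another gene, mostly Ugt2b38. Sult1a1 shared 3.37%, Gstm6 2.59%, Gstm2 1.85% and Ugt2a3 1.81%, and Ugt2b35, Ugt2b36, Sult1b1, Sult1c2, Sult2b1, Gstm7, Gstt1 and Gstz1 none. Of the Ugt1a genes, 28% to 59% of the words occur in a gene outside the entry, mostly Ugt1a8. Whether reads with several matches were kept is not given in the sources used here.

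Setting the tissues side by side, 28 of 33 members in both tables differed in the same direction, 14 higher and 14 lower in Vil-Ogt KO (84.8%, against 70.5% of 11839 genes). Spearman's rho between the 2 sets of differences was 0.75 over the 33 members and 0.56 over all genes. Genes are not independent replicates, the sources do not say whether the same mice gave both tissues, and the difference between these values was not tested. Past 2-fold, Gsta1 was higher in both, Sult1a1, Sult1c2 and Ugt2b35 were lower in both, 10 members were past 2-fold in the ileum alone and Gstp2 in the colon alone. No member was past 2-fold in opposite directions, and 18 were within 2-fold in both. Such overlaps were not counted over all genes, of which 30.4% were past 2-fold in ileum and 15.5% in colon. Whether the split of the members is unusual is therefore not known. The difference was wider in the ileum for 21 of 33 members (63.6%, against 68.1% of all genes).

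**Figure D4:**
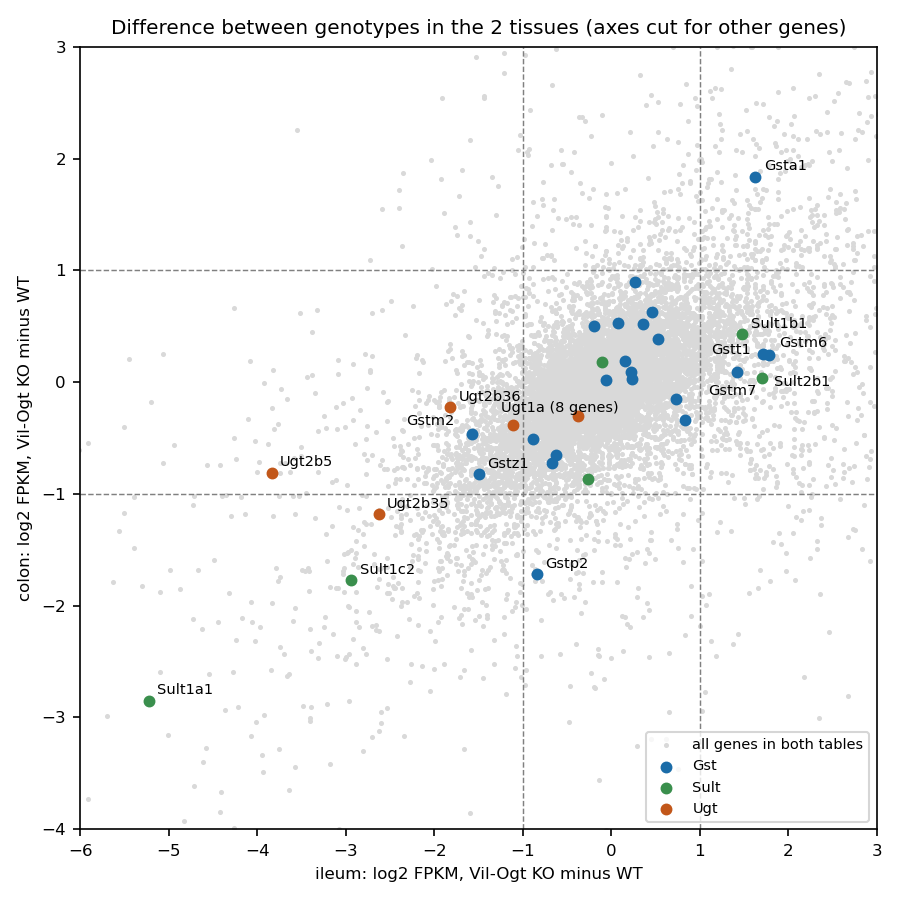
Difference between genotypes (log2 FPKM of Vil-Ogt KO minus WT) in the ileum (x axis) and in the colon (y axis) for conjugation enzymes by family and for all genes in both tables (grey). Dashed lines mark 2-fold, and members past it in a tissue are named. Gsta1 sits at 1.63 and 1.84 in the upper right, and Sult1a1 at -5.23 and -2.85 in the lower left.

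The 2 tables were normalized separately, so levels across tissues are a description. Of the 33 members, 25 had a higher value in WT colon than in WT ileum (median 0.44 on the log2 scale, against 0.08 over all genes), 9 of them by more than 2-fold. In Vil-Ogt KO, 24 had a higher value in colon (median 0.35, against 0.12 over all genes), 9 by more than 2-fold. The matching counts over all genes were not made, so whether the members' counts are unusual cannot be read from them. Of the 8 members that were lower in Vil-Ogt KO ileum, the colon minus ileum difference within Vil-Ogt KO was 3.99 for Sult1a1, 3.42 for Ugt2b5, 3.17 for Sult1c2, 2.62 for Gstm2, 1.61 for the Ugt1a entry, 0.99 for Ugt2b35, 0.66 for Ugt2b36 and 0.50 for Gstz1. Within WT it was 1.61 for Sult1a1, 0.39 for Ugt2b5, 2.0 for Sult1c2, 1.51 for Gstm2, 0.88 for the Ugt1a entry, -0.46 for Ugt2b35, -0.94 for Ugt2b36 and -0.18 for Gstz1, so the last 3 had the higher WT value in ileum. Of the members that were higher in Vil-Ogt KO ileum and had a row in both tables, the same difference within Vil-Ogt KO was -0.16 for Gsta1, 0.14 for Gstm6, 0.42 for Gstm7, 0.38 for Gstt1, -0.34 for Sult1b1 and -2.57 for Sult2b1. Within WT it was -0.37 for Gsta1, 1.68 for Gstm6, 1.75 for Gstm7, 1.85 for Gstt1, 0.71 for Sult1b1 and -0.91 for Sult2b1. Of these members, Gstm6, Gstm7, Gstt1 and Sult1b1 had the higher WT value in colon, and Gsta1 and Sult2b1 had it in ileum. As given above, the ileum labelled WT carried colonocyte markers at 6900 FPKM in sum, most of it Car1, and Vil-Ogt KO ileum at 318 FPKM. The part of the markers in these values was not tested.

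The genes around the conjugation step were counted in the same way, against 15.4% of all genes higher and 15.0% lower in the ileum and 7.21% and 8.28% in the colon. Of 11 genes for glutathione supply and recycling, 2 were higher and 0 lower in Vil-Ogt KO in each tissue. Ggt1, which cleaves extracellular glutathione and its conjugates at the brush border, was at 6.68 log2 FPKM in Vil-Ogt KO ileum and 4.35 in WT ileum. The secreted peroxidase Gpx3 was at 2.79 log2 FPKM in Vil-Ogt KO colon and 0.28 in WT colon. The cystine importer Slc7a11, below a mean of 1 FPKM, was the other higher gene in both tissues, at -0.78 log2 FPKM in Vil-Ogt KO ileum and -3.01 in WT ileum, and at 0.72 in Vil-Ogt KO colon and -2.32 in WT colon. Gclc, which makes the first step of glutathione synthesis, was within 2-fold, with log2 differences of 0.56 in ileum and 0.72 in colon. Of 4 genes for UDP-glucuronic acid supply and deconjugation, none was higher and 1 lower in the ileum, the beta-glucuronidase Gusb (3.34 log2 FPKM in Vil-Ogt KO against 4.67 in WT), and none was past 2-fold in the colon. Ugdh, which makes UDP-glucuronic acid, had log2 differences of 0.26 in ileum and 0.25 in colon.

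Of 8 measured genes for PAPS supply and desulfation, 0 were higher and 2 lower in each tissue. The PAPS synthases differed in opposite directions in the ileum, with Papss1 at 6.99 log2 FPKM in Vil-Ogt KO and 6.03 in WT and Papss2 at 6.32 in Vil-Ogt KO and 7.37 in WT. Of these, Papss1 stayed within 2-fold. Their log2 differences in the colon were -0.42 (Papss1) and 0.01 (Papss2). The sulfatase Arsb was at 0.90 log2 FPKM in Vil-Ogt KO ileum and 3.35 in WT ileum, and at 2.29 in Vil-Ogt KO colon and 3.66 in WT colon. Of 10 genes for export of conjugates, 4 were higher and 3 lower in Vil-Ogt KO ileum, and 2 were higher and 1 lower in Vil-Ogt KO colon. Abcc2, the apical pump for glutathione and glucuronide conjugates, whose entry also names Gm10768, was at 5.36 log2 FPKM in Vil-Ogt KO ileum and 0.34 in WT ileum, and at 2.05 in Vil-Ogt KO colon and -2.02 in WT colon. Abcc1, a pump of the basolateral membrane, was at 0.85 log2 FPKM in Vil-Ogt KO ileum and 3.02 in WT ileum. The subunits of the basolateral bile acid exporter had log2 differences of 1.53 (Slc51a) and 2.19 (Slc51b) in ileum, and of 0.97 (Slc51a) and 1.31 (Slc51b) in colon.

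Of 12 other phase II enzymes measured in the ileum, 2 were higher and 2 lower in Vil-Ogt KO, and of 13 in the colon, 1 was higher and 3 were lower. The epoxide hydrolase Ephx1 was at 3.60 log2 FPKM in Vil-Ogt KO ileum and 2.05 in WT ileum, and at 4.77 in Vil-Ogt KO colon and 3.35 in WT colon. Ephx2, the soluble epoxide hydrolase, was at 5.25 log2 FPKM in Vil-Ogt KO ileum and 3.59 in WT ileum, and at 3.11 in Vil-Ogt KO colon and 3.97 in WT colon. The carboxylesterases Ces1d and Ces1e share 1 entry in the ileum table, at 0.12 log2 FPKM in Vil-Ogt KO and 4.29 in WT. In the colon, Ces1d was at 2.68 log2 FPKM in Vil-Ogt KO and 5.23 in WT, and Ces1e at 2.28 in Vil-Ogt KO and 3.44 in WT. The related Ces1f was at 3.80 against 6.18 log2 FPKM in the ileum and 5.10 against 6.43 in the colon. Of 10 sensors of xenobiotics and electrophiles, 2 were higher in Vil-Ogt KO ileum and none was past 2-fold in the colon. These were nuclear receptors that induce conjugation enzymes in the liver. Nr1i3 (CAR) was at 2.52 log2 FPKM in Vil-Ogt KO ileum and -0.56 in WT ileum, and Nr1i2 (PXR) at 5.66 in Vil-Ogt KO ileum and 4.61 in WT ileum.

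**Figure D5:**
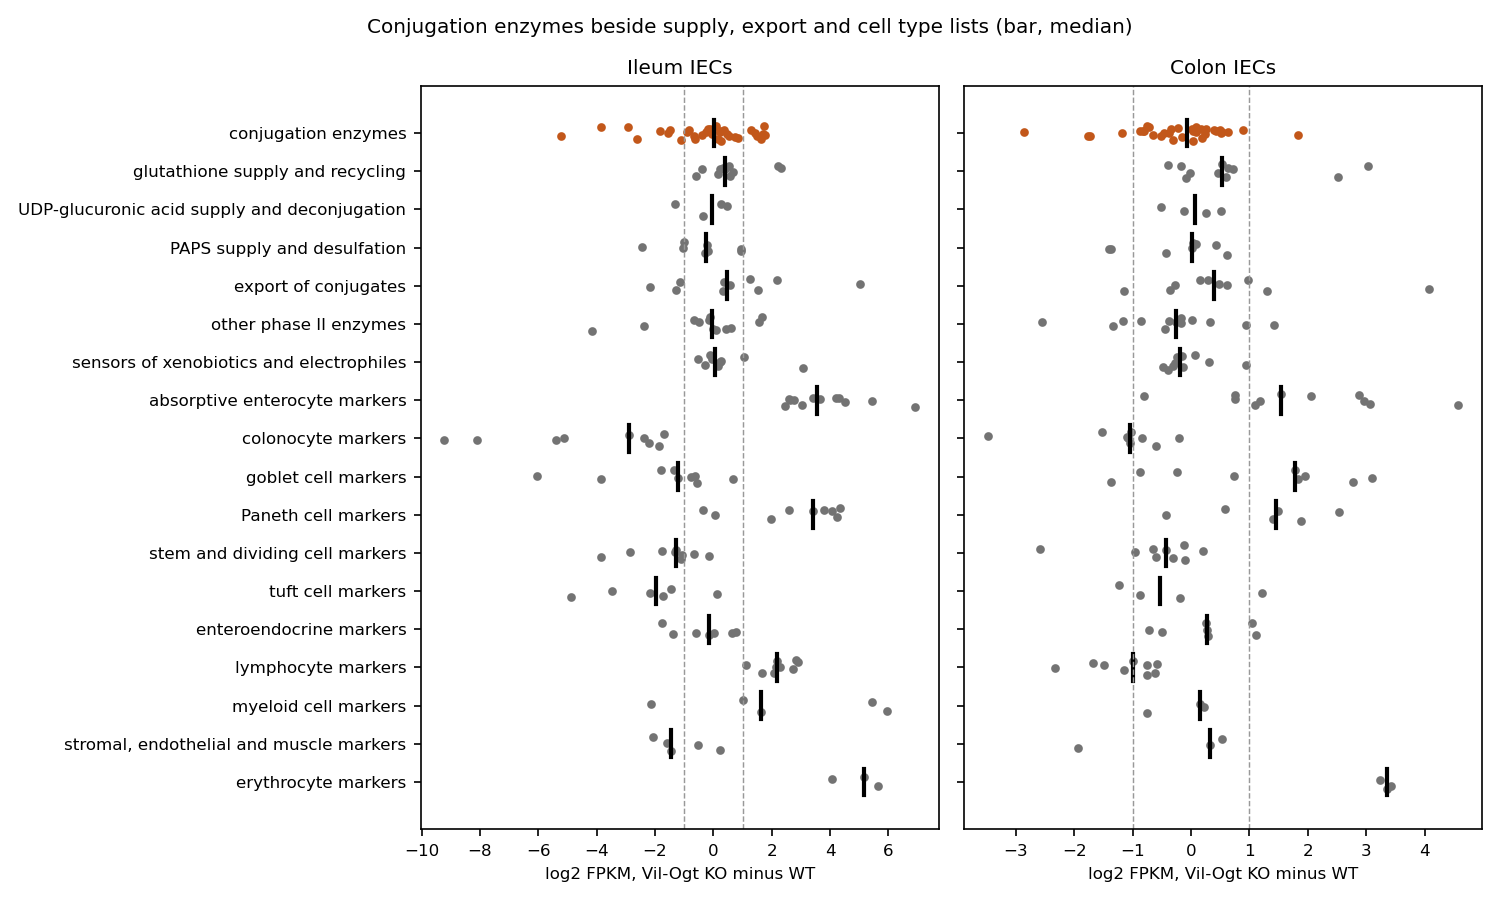
Difference between genotypes (log2 FPKM of Vil-Ogt KO minus WT, x axis) of each gene of the conjugation enzymes (orange) and of the lists for supply, export, sensing and cell types (grey), in ileum (left) and colon (right). Black bars are medians, dashed lines mark 2-fold, and genes listed at 0 in a genotype are left out. The median of the conjugation enzymes is 0.01 in the ileum, while that of the absorptive enterocyte markers is 3.54 and that of the colonocyte markers -2.89.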

How the data were processed

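RNA of IECs from ileum and colon was sequenced with single reads of 75 bases. According to the submitters' processing notes, reads were handled with Bowtie, TopHat 1.0.0 and Cufflinks on the build mm10, and the methods name Trimmomatic and DESeq2, which was not used here. The deposited log2 FPKM values were made by the authors, 1 per genotype and locus, with 0 FPKM listed as -10. Further columns hold the authors' own comparison (a log2 ratio, a q-value and a significance mark) and were not used. The ileum and colon tables hold 16521 and 18122 rows, of which 3505 and 4815 name no gene and were set aside. The values of single libraries are not analysed here, so depth and the precision of each value are unknown.

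Where several rows had 1 entry, the row of highest mean FPKM was taken. Differences (Vil-Ogt KO minus WT) were computed in Python 3.11.15 with NumPy 2.4.6 and pandas 2.3.3, with no level filter, and counted past 2-fold. The steps were tested on simulated data. Alternatives were folds of 1.5 and 4, log2(FPKM + 1), a minimum mean of 1 FPKM, centring on the median, counting every row and dropping entries of several symbols.

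Members named with values have a mean of at least 1 FPKM and are past 2-fold, or are among the 4 highest of their family in a tissue. Of each other list up to 4 genes with the widest difference and a mean of at least 1 FPKM could be named, and not all of them are. Other members, markers and list genes with values were chosen after their values were seen. The members and lists were chosen with earlier results of these data known. Locus starts in the files count from 0 and were raised by 1. Some items are not reported here. Shared 75-base words were counted over the transcripts of GENCODE vM21.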

Additional observations from a re-analysis of the deposited data

How the results depend on the processing

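No paired analysis was possible because the tables hold 1 value per genotype and none per library, and no library could be left out. At 4-fold in Vil-Ogt KO ileum, 0 of 34 members were higher (against 6.79% of all genes) and 4 lower (against 3.73%). In either direction these were 4 of 34, against 10.5% of all genes. At 4-fold in Vil-Ogt KO colon, 0 of 34 were higher (against 2.62% of all genes) and 1 lower (against 2.14%). In either direction this was 1 of 34, against 4.76% of all genes. At 1.5-fold in Vil-Ogt KO colon, 3 of 34 were higher (against 14.1% of all genes) and 10 lower (against 18.3%). In either direction these were 13 of 34, against 32.4% of all genes. With log2(FPKM + 1), 18.4% of all genes were past 2-fold in the ileum in place of 30.4%, and 7.13% in the colon in place of 15.5%, so the members' shares read higher against that background. Ugt2a3 in the ileum then fell short of 2-fold, at 0.62, and the median levels of Ugt in Vil-Ogt KO ileum, Sult in Vil-Ogt KO ileum and Ugt in Vil-Ogt KO colon became 1.87, 4.77 and 3.97. Of 36 differences of named members, 35 kept their direction and side of 2-fold with log2(FPKM + 1), and 36 did so after centring on the median of all genes. The other 43 counts and medians over the members stayed within 1.5 times the count or within 0.1 of the median. The median difference itself changed sign within that range, with values between -0.06 and 0.08 (ileum) or between -0.07 and 0.03 (colon), so it has no set direction. Depth, and with it the counting error of low genes such as Ugt2a3, Ugt2b36 and Sult6b1, is unknown.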
